A study of Mus musculus with 20 samples.

Results

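A set of 10 genes listed as p53 targets of signalling, DNA repair and metabolism was followed in mouse whole blood: Phlda3, Aen, Trp53inp1, Psrc1, Dcxr, Zmat3, Polk, Xpc, Ddb2 and Rrm2b. Whether p53 acts on each of them in these mice was not tested. They are 10 of the 31093 gene names on the array. They were chosen by name among genes listed as p53 targets, from measured responses to 7 Gy in these same mice. Those responses are therefore given here as a description and carry no test. Every non-control probe that the files assign to one of the 10 names was read, 14 probes in all, and 12 probes of 9 genes passed the filters. Both probes of Rrm2b failed the filter on background.

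p53 is a transcription factor that DNA damage stabilises, and it raises genes that stop the cell cycle, repair DNA, change metabolism or start cell death. In blood the response comes from nucleated cells, and lymphocytes are among the cells that radiation kills most readily. Several p53 targets are used as blood markers of radiation exposure, which was the setting of the study. Its question was whether a chronic inflammatory state changes such markers.

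The mice were 8 to 10 week old males on a C57BL/6 background, and 4 groups of 5 were analysed: WT and Il10-/-, each at 0 Gy (sham) and at 7 Gy of whole-body X-rays. Il10-/- mice carry a targeted allele of the anti-inflammatory cytokine gene Il10 and serve as a model of inflammatory bowel disease. Blood was taken by cardiac puncture 24 h later and the RNA was depleted of globin transcripts. Each of the 20 samples, labelled as 1 mouse each, was hybridised alone to a single-colour array, and each of 5 slides held 1 array of every group.

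Signals are given as log2 of the processed signal minus the median of the array, so a value of 0 is the level of the median probe and 1 unit is a doubling of signal. Levels of different probes cannot be set against each other. A response is the mean at 7 Gy minus the mean at 0 Gy. Calls were made with limma over 18587 features and needed both p below 0.001 and a false-discovery rate (Benjamini-Hochberg) under 10%.

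Some features of the arrays touch the results. The share of spots well above background was 38.5 to 57.8% on 18 arrays, 29.9% on WT 0 Gy replicate 5 and 34.6% on Il10-/- 7 Gy replicate 3. Of the 9 genes, 7 had their lowest WT 0 Gy value on that replicate 5, and 7 had their lowest Il10-/- 7 Gy value on that replicate 3. Replicates 1 and 2 of each group were closer to each other than any other pair of their group (robust SD of their difference 0.230 to 0.336, against at least 0.407), although labelled as separate mice. The Il10 probe rose well above background in all 10 mice labelled Il10-/- and in 0 of the 10 labelled WT, against the direction of the labels. The place of this probe relative to the targeted part of the gene is not given in the sources used here. Neutrophils are commonly raised in the blood of inflamed mice, and the neutrophil genes ran in the direction of the labels, higher on arrays labelled Il10-/- by 2.43 at 0 Gy (11 genes, exact permutation p = 0.0079, 0.0286 after adjustment over 36 comparisons). Groups are named by their labels. In the arrays labelled whole blood, the mean of 25 hepatocyte genes ran from 0.22 to 1.34 at WT 0 Gy, 1.96 to 10.5 at WT 7 Gy, 1.48 to 8.81 at Il10-/- 0 Gy and 1.56 to 8.71 at Il10-/- 7 Gy. The mean of 12 B cell genes fell by 3.22 in WT after 7 Gy and fell by 3.36 in Il10-/- (exact permutation p = 0.0079 in each, the smallest that 5 arrays against 5 allow, 0.0286 after adjustment). In such bulk samples, fewer cells of a type and less RNA per cell cannot be told apart. All permutation tests of marker lists, here and below, count replicates 1 and 2 as separate mice. If they are not, the p-values given are too small.

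After 7 Gy, 5 of the 10 genes were called higher in WT mice (Phlda3, Aen, Psrc1, Dcxr and Zmat3), where 4.48% of all features were called higher. In Il10-/- mice 7 of the 10 were called higher by any of their probes, the same 5 with Polk and Trp53inp1. There 3.29% of all features were called higher. By the brightest probe above background of each gene 6 were, since only the dim probe of Trp53inp1 was called. None of the 10 was called lower. The irradiated arrays lay wholly above the unirradiated ones for 6 genes in WT (11.8% of features) and for 6 genes in Il10-/- (6.13% of features). These calls describe the values the genes were chosen from. They depend on the background correction: with normexp, responses in WT and Il10-/- were 3.62 and 2.54 for Phlda3, 2.22 and 1.00 for Aen, 2.35 and 0.79 for Dcxr and 0.97 and 0.67 for Psrc1. The first 3 of these were called in WT, where 268 of 11458 features were. None was called in Il10-/-, where 0 of 11458 features were. The median feature responded by 0.65 in WT and by -0.32 in Il10-/- with normexp. Zmat3 and Polk no longer passed the filters there, and gave 0.73 and 0.46 and 0.27 and 0.18. The median response of the 9 genes was 1.83 in WT and 1.63 in Il10-/-, beside -0.02 and -0.10 for all features. How many features are called in each direction depends on the scaling: 832 higher and 431 lower in WT became 795 and 761 with the 75th percentile and 705 and 693 with quantile scaling, and 611 higher and 1091 lower in Il10-/- became 940 and 922 with scaling to a reference array.

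**Figure D1:**
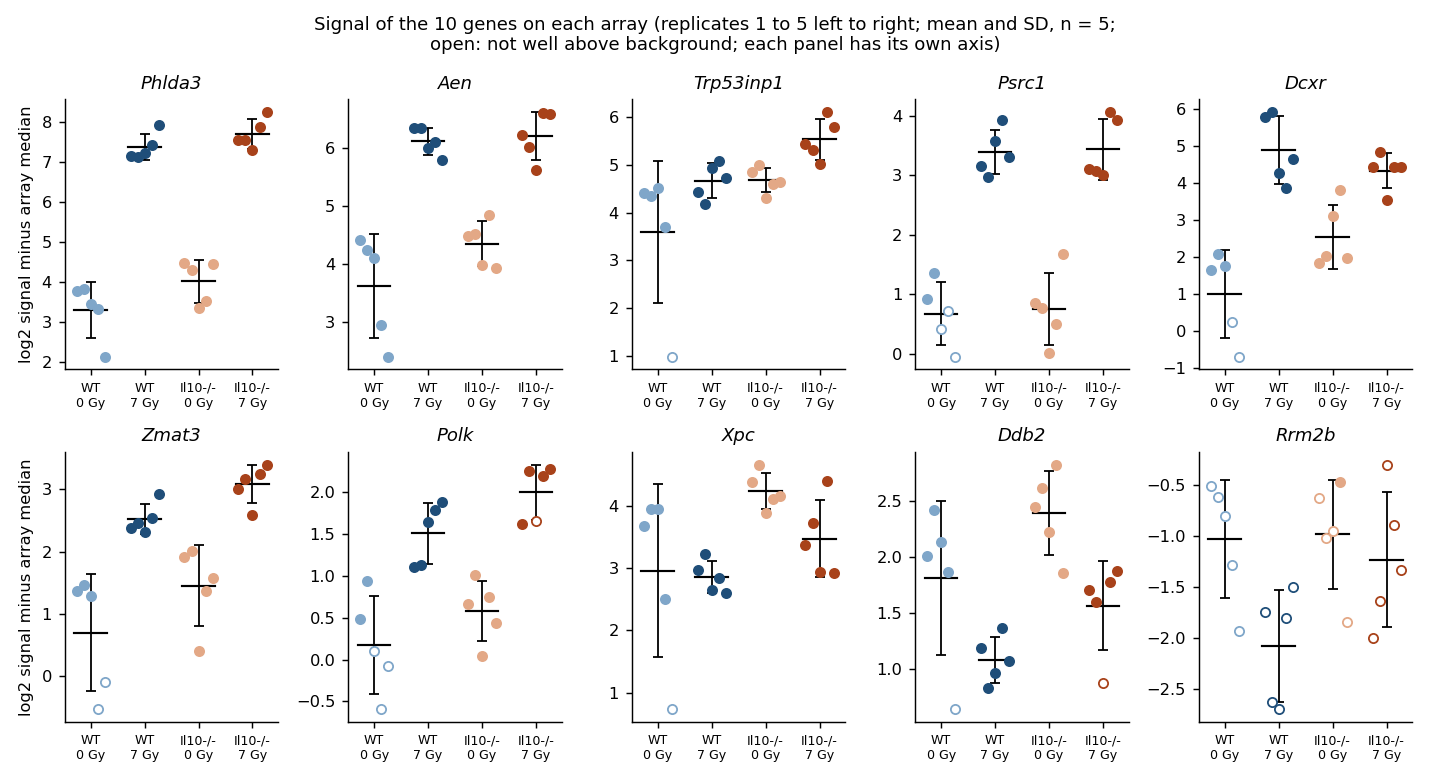
Log2 signal minus array median of the 10 genes, 1 panel a gene with its own axis, on the 5 arrays of each of the 4 groups; horizontal lines and bars are the mean and SD, and open symbols were not well above background. Irradiated arrays of Phlda3, Aen, Psrc1, Zmat3 and Polk lie above the unirradiated arrays of their genotype, Xpc and Ddb2 do not rise, and Rrm2b is at background.

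Phlda3, a pleckstrin homology domain protein that restrains the kinase Akt by competing for membrane lipids, had the largest response of the 10. At 0 Gy its log2 signal in WT replicates 1 to 5 was 3.79, 3.84, 3.44, 3.32 and 2.14, and at 7 Gy it was 7.15, 7.12, 7.22, 7.42 and 7.92. The Il10-/- values at 0 Gy were 4.48, 4.31, 3.34, 3.54 and 4.45, and those at 7 Gy were 7.55, 7.54, 7.29, 7.88 and 8.25. Every irradiated array stood more than 2 units above every unirradiated array, whatever the genotype. The response was 4.06 (SE 0.41) in WT, a 16.7-fold difference, and 3.68 (SE 0.30) in Il10-/-, a 12.8-fold difference. It was called with each single array left out in turn, in both genotypes. Its probe lies at chr1:137665642-137665701 (mm9, plus strand). In its family, Phlda1 had responses of 2.13 and 0.85, neither called, and Phlda2 failed the background filter. The 250 bases before the Phlda3 start in RefSeq (GRCm38.p6, chr1:135765835-135766084, plus strand) are shown as the upstream sequence of the most responsive gene, with no p53 decamer match in it.

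Phlda3: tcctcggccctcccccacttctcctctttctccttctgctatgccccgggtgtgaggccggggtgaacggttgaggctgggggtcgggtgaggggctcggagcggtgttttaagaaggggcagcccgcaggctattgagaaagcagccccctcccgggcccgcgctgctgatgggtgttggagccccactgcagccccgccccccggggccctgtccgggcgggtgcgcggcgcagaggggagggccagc

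Aen encodes an exonuclease that digests DNA in dying cells. Its standing probe, the brighter of a pair, read 4.43, 4.25, 4.11, 2.96 and 2.41 on the WT 0 Gy arrays and 6.35, 6.35, 6.00, 6.10 and 5.79 on the WT 7 Gy arrays. Il10-/- arrays read 4.48, 4.51, 3.98, 4.85 and 3.94 at 0 Gy and 6.23, 6.02, 5.62, 6.61 and 6.59 at 7 Gy. The 2 doses did not overlap in either genotype, and the WT 0 Gy arrays spread most (SD 0.89, against 0.24 at WT 7 Gy). The response was 2.49 (SE 0.44) in WT and 1.86 (SE 0.27) in Il10-/-, and it was called with each single array left out. The other probe gave 2.49 and 1.85. Agreement between the pair is not independent, since they share 50 of their 60 bases. The first 30 bases of each are shown to make this visible, with the shared part in capitals:

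A_55_P2141860: ttactgggagAAGTCAGCTTGCTCATAGTA
A_55_P2145804: AAGTCAGCTTGCTCATAGTAccagaccatc

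The files place both Aen probes on chromosome 4 (chr4:14158342-14158401 and chr4:14158332-14158391, mm9, minus strand), whereas RefSeq places the Aen start on chromosome 7. Of 27157 probes with a position and a RefSeq gene, 3.06% lie on another chromosome than their gene, and 4 of the 13 placed probes of these genes do (the pairs of Aen and Rrm2b). Whether another locus adds to the Aen signal was not tested.

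Upstream sequence of 5 of the 10 genes was at hand in RefSeq, in 8 windows of 250 bases that end at a transcript start. The p53 decamer, the 10-base unit that p53 binds in pairs, was searched by its consensus, which reads the same on both strands. It occurred in 2 of the 8 windows, 1 of Aen and 1 of Polk, and in 7.13% of 32851 windows of all genes. A match is a stretch of letters and not a shown site of binding. Both are printed with the decamer in capitals, for Aen at chr7:78895808-78896057 (plus strand, 121 bases before the start) and for Polk at chr13:96519188-96519437 (minus strand, 231 bases before the start), GRCm38.p6.

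Aen: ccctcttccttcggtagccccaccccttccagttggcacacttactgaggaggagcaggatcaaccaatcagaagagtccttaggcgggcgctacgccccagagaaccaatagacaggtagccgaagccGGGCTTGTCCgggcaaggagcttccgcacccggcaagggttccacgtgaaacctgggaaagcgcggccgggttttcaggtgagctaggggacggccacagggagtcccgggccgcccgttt
Polk: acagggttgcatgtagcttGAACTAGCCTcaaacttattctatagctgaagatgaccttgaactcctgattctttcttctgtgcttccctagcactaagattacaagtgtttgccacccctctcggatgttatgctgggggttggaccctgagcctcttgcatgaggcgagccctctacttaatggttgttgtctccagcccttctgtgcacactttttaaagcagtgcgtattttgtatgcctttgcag

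Psrc1, a microtubule-binding protein of the mitotic spindle, rose from near the array median. Its WT values were 0.92, 1.36, 0.42, 0.71 and -0.05 at 0 Gy and 3.16, 2.98, 3.57, 3.93 and 3.30 at 7 Gy. Those of Il10-/- mice were 0.85, 0.77, 0.01, 0.50 and 1.67 at 0 Gy and 3.12, 3.07, 3.01, 4.07 and 3.93 at 7 Gy. The doses were separated by more than 1 unit in both genotypes. Only 2 of the 5 WT 0 Gy arrays were well above background, against 5 of 5 in each of the other groups. The responses were 2.72 (SE 0.39) in WT and 2.68 (SE 0.34) in Il10-/-. With normexp background they were 0.97 and 0.67, neither called, and no feature at all was called in Il10-/-. Its probe lies at chr3:108190744-108190803 (mm9, plus strand).

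Zmat3, a zinc finger protein that binds RNA, read 1.37, 1.46, 1.29, -0.54 and -0.10 at WT 0 Gy and 2.38, 2.45, 2.32, 2.54 and 2.93 at WT 7 Gy. Among Il10-/- mice it read 1.91, 2.02, 0.39, 1.36 and 1.58 at 0 Gy and 3.00, 3.17, 2.59, 3.26 and 3.40 at 7 Gy. The doses did not overlap in either genotype. The response was 1.83 (SE 0.45) in WT and 1.63 (SE 0.31) in Il10-/-. In WT the call held in 3 of 10 fits that left out 1 array, where the response stayed between 1.52 and 2.02. It was lost when replicates 1 and 2 were averaged and with hepatocyte and heart covariates (0.74), where 5 of all 18587 features were called. In Il10-/- it held in 10 of 10. The probe lies at chr3:32233831-32233890 (mm9, minus strand).

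Trp53inp1, a nuclear protein of the p53 stress response that also takes part in autophagy, has a bright and a dim probe. The bright probe (chr4:11101174-11101233, mm9) read 4.42, 4.34, 4.52, 3.70 and 0.98 at WT 0 Gy and 4.43, 4.18, 4.93, 5.09 and 4.73 at WT 7 Gy. Its Il10-/- values were 4.85, 4.99, 4.31, 4.60 and 4.65 at 0 Gy and 5.44, 5.31, 5.02, 6.12 and 5.80 at 7 Gy. The doses overlapped in WT and were apart in Il10-/-. The WT difference of 1.08 (SE 0.58) became 0.43 without replicate 5 of WT 0 Gy, and the Il10-/- difference was 0.86 (SE 0.25). Neither was called. The dim probe (chr4:11092530-11092589, mm9) gave 0.63 in WT, not called, and 1.04 in Il10-/-, where it supplied the gene's call. That call was lost with the replicate block.

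Polk encodes a DNA polymerase that copies past damaged bases. Its brighter probe (chr13:97251653-97251712, mm9, minus strand) read 0.49, 0.94, 0.11, -0.60 and -0.07 at WT 0 Gy and 1.11, 1.14, 1.65, 1.78 and 1.88 at WT 7 Gy. Il10-/- arrays gave 0.67, 1.01, 0.05, 0.74 and 0.44 at 0 Gy and 1.63, 2.26, 1.66, 2.19 and 2.27 at 7 Gy. The doses did not overlap in either genotype. The difference was 1.34 (SE 0.39) in WT, where 2 of 5 unirradiated arrays were well above background and no call was made, and the response was 1.42 (SE 0.25) in Il10-/-, called. The other probe (chr13:97256835-97256894, mm9) was well above background on 3 of 20 arrays and gave 0.24 and 0.84. Of the 10 other genes of translesion synthesis on the array, 6 were tested and 0 were called in either genotype, with median responses of -0.46 and -0.71.

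Dcxr, dicarbonyl and L-xylulose reductase, serves the uronate pathway and is abundant in liver. It read 1.66, 2.08, 1.76, 0.24 and -0.69 at WT 0 Gy, where 3 of the 5 arrays were well above background, and 5.78, 5.93, 4.27, 3.88 and 4.65 at WT 7 Gy. In Il10-/- mice it read 1.85, 2.02, 3.10, 3.82 and 1.98 at 0 Gy and 4.43, 4.83, 3.55, 4.43 and 4.44 at 7 Gy. The doses were apart in WT and overlapped in Il10-/-, where replicates 3 and 4 were the highest unirradiated arrays and replicate 3 the lowest irradiated one. The response was 3.89 (SE 0.57) in WT, 14.9-fold, and 1.78 (SE 0.40) in Il10-/-, 3.44-fold. With normexp background it was 2.35 in WT, called, and 0.79 in Il10-/-, where no feature at all was called. The Il10-/- call held in 3 of 10 fits that left out 1 array, with values from 1.61 to 2.10, and was lost with the replicate block (1.78, not called). The files give no position for its probe, whose first 30 bases are shown for that reason.

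A_51_P181319: accatactgtctactgttccaccaagggtg

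Hepatocyte genes were high together with Dcxr on some arrays and not on others. On Il10-/- 0 Gy replicates 3 and 4 the mean of the 25 hepatocyte genes was 7.57 and 8.81, against 1.84, 1.87 and 1.48 on replicates 1, 2 and 5. Dcxr also read 3.55 on Il10-/- 7 Gy replicate 3, at a hepatocyte mean of 1.56, and 3.88 on WT 7 Gy replicate 4, at 1.96. At WT 0 Gy 7 of the 25 were well above background on 0 arrays (Apoa1, Apoh, Cps1, Cyp3a11, Fgg, Itih3 and Pck1) and 6 were so on all 5, whereas 16 were on all 5 at WT 7 Gy. Counts on all 5 arrays were 15 at Il10-/- 0 Gy and 8 at Il10-/- 7 Gy. The mean of the hepatocyte genes was higher by 6.21 at WT 7 Gy than at WT 0 Gy (exact permutation p = 0.0079, 0.0286 after adjustment) and by 1.73 in Il10-/- (exact permutation p = 0.421, 0.541 after adjustment). The hepatocyte means of the 2 doses did not overlap in WT, so dose and hepatocyte RNA cannot be told apart there. With the means of hepatocyte and heart genes as covariates the Dcxr response was 1.93 in WT, not called, and 1.87 in Il10-/-, called. Of all 18587 features 5 were called in WT with these covariates, against 1263 without them, and 604 in Il10-/-, against 1702. The part of hepatocyte RNA in the Dcxr values was not tested beyond this fit. Of the 10 other genes of the uronate and polyol pathway, 8 were tested. In WT 3 of them were called higher, Khk (3.51), Cryl1 (2.75) and Sord (2.13), and in Il10-/- Cryl1 alone (1.64). Their median response was 1.84 in WT and 0.63 in Il10-/-.

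**Figure D2:**
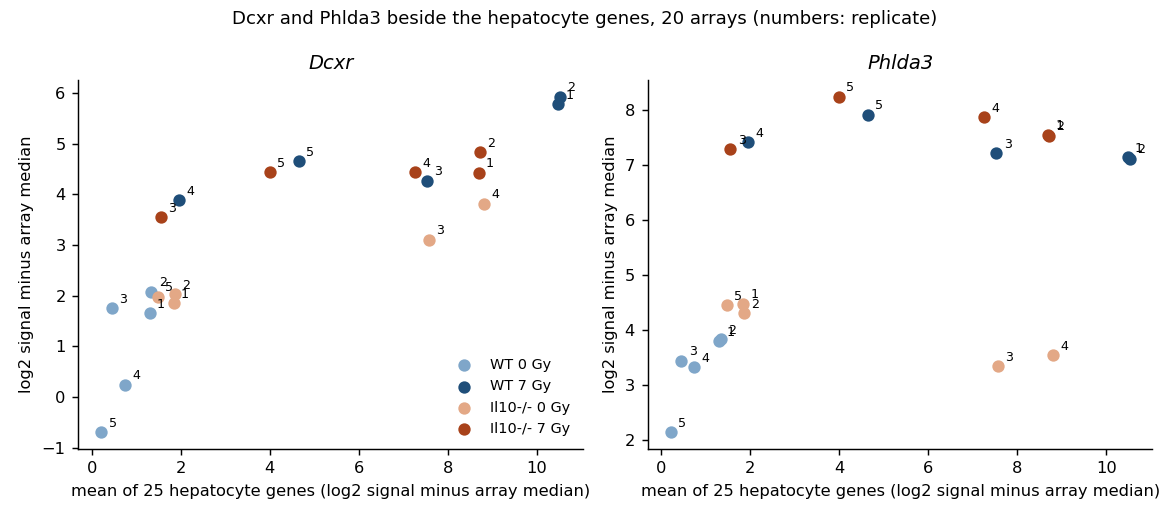
Log2 signal of Dcxr (left) and Phlda3 (right) on the vertical axis against the mean of 25 hepatocyte genes on the horizontal axis, both minus the array median; each point is 1 of 20 arrays, coloured by group and numbered by replicate. Dcxr reads 5.78 and 5.93 on the WT 7 Gy arrays with the highest hepatocyte means and 3.88 on the one with the lowest. Phlda3 reads 3.34 and 3.54 on the unirradiated Il10-/- arrays 3 and 4, which also hold high hepatocyte means.

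The 2 damage-recognition genes of nucleotide excision repair were not called in either genotype. Xpc, which finds distorted DNA, read 3.67, 3.95, 3.96, 2.50 and 0.73 at WT 0 Gy and 2.97, 3.24, 2.65, 2.84 and 2.60 at WT 7 Gy. Among Il10-/- mice it read 4.38, 4.67, 3.89, 4.12 and 4.16 at 0 Gy and 3.38, 3.72, 2.94, 4.41 and 2.92 at 7 Gy. The doses overlapped in both genotypes. The difference was -0.10 (SE 0.55) in WT and -0.77 (SE 0.31) in Il10-/-, and the WT value became -0.66 without replicate 5 of WT 0 Gy. Its probe lies at chr6:91439856-91439915 (mm9, minus strand).

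Ddb2, the damage-binding partner of Ddb1, read 2.01, 2.42, 2.13, 1.86 and 0.63 at WT 0 Gy and 1.18, 0.83, 0.96, 1.36 and 1.07 at WT 7 Gy. Its Il10-/- values were 2.45, 2.61, 2.22, 2.82 and 1.86 at 0 Gy and 1.70, 1.59, 0.87, 1.77 and 1.87 at 7 Gy. Its irradiated arrays were mostly the lower ones, with overlap through 1 unirradiated array of each genotype. The difference was -0.73 (SE 0.40) in WT and -0.83 (SE 0.27) in Il10-/-, and -1.02 in WT without replicate 5 of WT 0 Gy. The Il10-/- difference passed a false-discovery rate under 5% used alone, in which case Ddb2 was called lower. Its probe lies at chr2:91052013-91052072 (mm9, minus strand). Of the 21 other genes of the pathway 20 passed the background filter and 11 were tested. Cul4a, a scaffold of the ubiquitin ligase that Ddb1 and Ddb2 join, was called lower (-2.84 in WT and -2.75 in Il10-/-), and none was called higher. Beside these lower values, 10 of the 11 tested B cell genes and 7 to 8 of the 14 erythroid genes were also called lower, and their part in the result was not tested.

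Rrm2b, the p53-inducible small subunit of ribonucleotide reductase, was not measured above background. Its probes were well above background on 0 and on 1 of 20 arrays, so no fold is given. Both carry positions on a chromosome other than the one RefSeq gives for the gene (chr13:3354548-3354607 and chr13:3356462-3356521, mm9). Of the 12 other genes of deoxynucleotide supply, 8 were tested and 0 were called in either genotype, with median responses of -0.06 and -0.54.

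**Figure D3:**
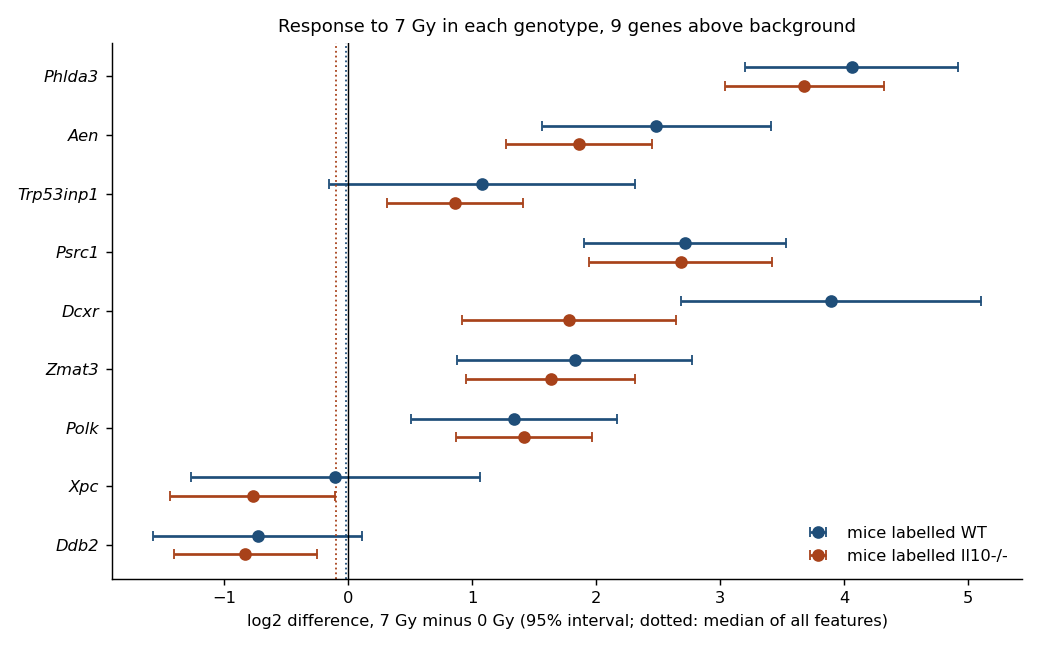
Response to 7 Gy (log2 difference, horizontal axis) of the 9 genes above background in mice labelled WT and Il10-/-, with 95% intervals; dotted lines are the medians of all features, -0.02 and -0.10. Phlda3, Aen, Psrc1, Dcxr, Zmat3 and Polk have intervals above 0 in both genotypes. The genes were chosen from these responses, so the intervals are a description and no test. Dcxr shows the widest gap between the genotypes, 3.89 against 1.78.

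The wider p53 response was read from lists of other targets. Of all features, 4.48% were called higher in WT and 3.29% in Il10-/-. Of 17 genes of cell-cycle arrest and feedback, 11 were tested and 3 were called higher in WT: Cdkn1a (5.42), the inhibitor of cyclin-dependent kinases, Plk2 (2.92) and Ccng1 (2.51). In Il10-/- the same 3 (4.45, 2.50 and 2.28) and Gtse1 (2.25) were. The median of this list was 1.18 in WT and 0.68 in Il10-/-. Of 18 genes of apoptosis and metabolism, 15 were tested, and 6 were called higher in WT: Perp (3.49), Ephx1 (3.25), Ei24 (2.92), Bax (2.29), Tnfrsf10b (2.29) and Bbc3 (1.68). In Il10-/- 5 were called higher, Tnfrsf10b (2.26), Ephx1 (2.15), Bax (1.81), Bbc3 (1.81) and Ei24 (1.68), and Trp53i11 was called lower (-1.22). The median of this list was 0.71 in WT and 0.64 in Il10-/-. The hepatocyte genes were higher by 6.21 at WT 7 Gy than at WT 0 Gy, and their part in both lists was not tested. With hepatocyte and heart covariates, 5 of 18587 features were called in WT. Trp53 itself read 1.59 ± 0.79 at WT 0 Gy, 0.89 ± 0.39 at WT 7 Gy, 2.01 ± 0.22 at Il10-/- 0 Gy and 1.10 ± 0.46 at Il10-/- 7 Gy (mean ± SD, n = 5). Its response was not called in either genotype, -0.69 (SE 0.43) and -0.91 (SE 0.26), and the file places its probe on another chromosome than the gene.

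**Figure D4:**
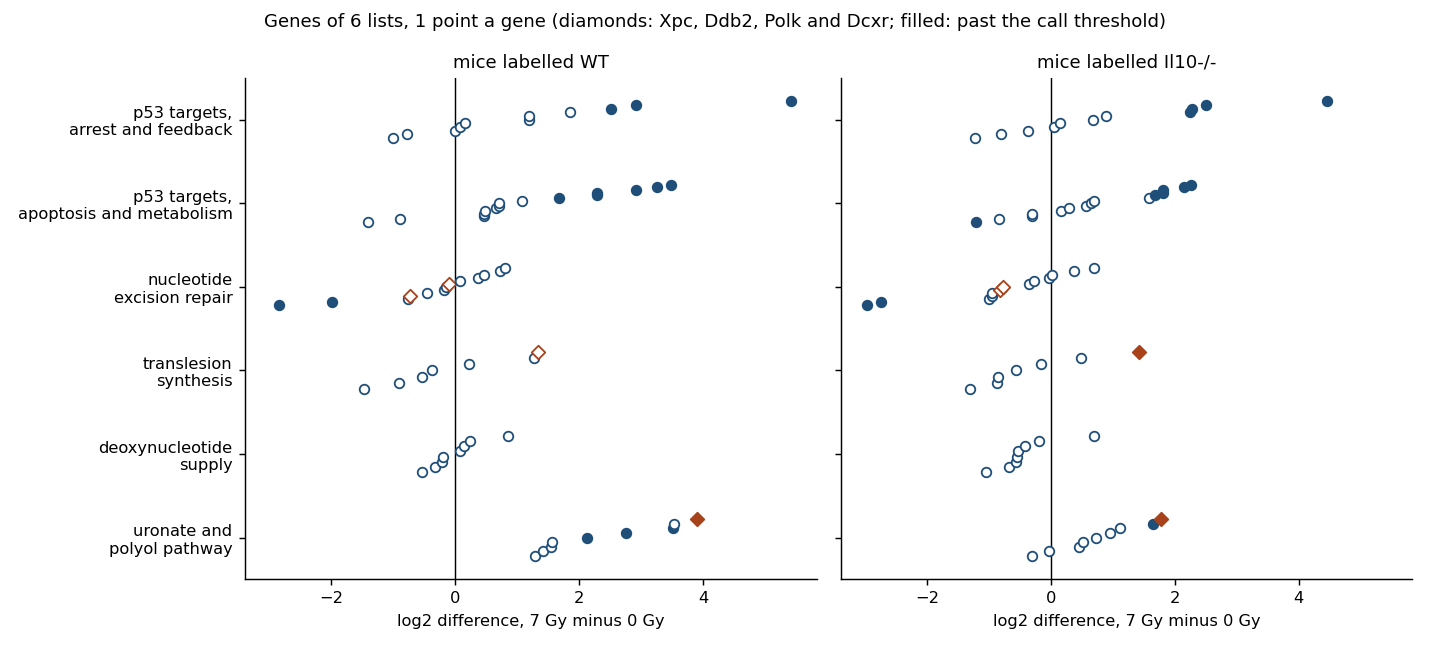
Log2 difference at 7 Gy (horizontal axis) of the tested genes of 6 lists in each genotype, 1 point a gene; diamonds are Xpc, Ddb2, Polk and Dcxr and filled symbols passed the call threshold. Polk stands at 1.34 and 1.42 among translesion synthesis genes with medians of -0.46 and -0.71, and Cul4a of nucleotide excision repair stands at -2.84 and -2.75.

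The genotypes were compared at each dose and in their responses, and these comparisons were tested. All of them share arrays with the responses from which the genes were chosen, so none is independent of the choice. The 0 Gy comparison contains no irradiated array. No gene of the 10 was called in any of these comparisons. At 0 Gy 0.845% of all features were called, at 7 Gy 0.00538%, and for the difference of the responses 0% (0 of 18587 in limma). Of the 9 genes, 2, 2 and 1 had an unadjusted p below 0.05 in these comparisons, beside 2991, 2066 and 1301 of the 18587 features. The median feature itself differed by 0.36 at 0 Gy, 0.08 at 7 Gy and -0.20 in response, and with the 75th percentile in place of the median the shifts were -0.07, -0.03 and 0.12. Values relative to the median feature are given for that reason.

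At 0 Gy all 9 genes read higher in Il10-/- mice than in WT, as did 67.9% of all features, and 8 of the 9 did so by more than the median feature. Dcxr differed most, by 1.55 (SE 0.54, adjusted p = 0.222), 1.19 above the median feature, and by 1.12 without replicate 5 of WT 0 Gy. The hepatocyte genes were also higher at 0 Gy in Il10-/- mice, by 3.50 (exact permutation p = 0.0079, 0.0286 after adjustment, 3 of 20 tested genes called), and with hepatocyte and heart covariates the Dcxr difference was 0.64. Xpc differed by 1.28 (SE 0.53, adjusted p = 0.272), 0.92 above the median feature, and by 0.72 without that array. Trp53inp1 differed by 1.09 (SE 0.55, adjusted p = 0.325) and by 0.43 without that array. Zmat3 (0.76), Aen (0.72), Phlda3 (0.72), Ddb2 (0.58), Polk (0.41) and Psrc1 (0.09) had adjusted p from limma of 0.357 to 0.910. Relative to the median feature Psrc1 was at -0.27.

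At 7 Gy Trp53inp1 had the largest difference of the 9 genes, seen on both of its probes. With normexp background its value was 0.02 and that of Dcxr, -1.004, was the largest in size, but the median feature then stood at -0.498. The bright probe was higher in Il10-/- mice on 5 of 5 slides, by 0.87 (SE 0.27, adjusted p = 0.377). On the dim probe the Il10-/- arrays (2.23, 2.53, 2.05, 2.90 and 2.11) were all above the WT arrays (1.44, 1.58, 1.92, 1.95 and 1.26), as for 2.25% of all features, and the difference was 0.74 (SE 0.25, adjusted p = 0.391). Zmat3 was higher by 0.56 (SE 0.23, adjusted p = 0.415). Phlda3, Zmat3, Polk and Xpc were also higher on 5 of 5 slides. The share of all features higher on 5 of 5 slides is not given here, so this count is a description. Replicates 1 and 2 were also close in every group. Of all features 56.7% were higher on average in Il10-/- mice at this dose. Xpc (0.61), Polk (0.49), Ddb2 (0.48), Phlda3 (0.34), Aen (0.10) and Psrc1 (0.05) were higher and Dcxr lower (-0.56) on average, with adjusted p of 0.470 to 0.957 from limma. The neutrophil genes were higher in Il10-/- mice by 2.43 at 0 Gy and 1.54 at 7 Gy (11 genes, exact permutation p = 0.0079 in each, 0.0286 after adjustment) and the platelet genes by 0.91 at 7 Gy (12 genes, exact permutation p = 0.0079, 0.0286 after adjustment), and their part in these values was not tested.

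The responses of the genotypes did not differ past the threshold for any of the 9 genes. Dcxr came nearest: its response was smaller in Il10-/- mice by 2.11 on the log2 scale (95% interval of the difference -3.64 to -0.59, unadjusted p = 0.00881 and adjusted p = 0.688 from limma over all features), -1.92 relative to the median feature. Without replicate 5 of WT 0 Gy the value was -1.69, and with the hepatocyte and heart covariates -1.03. The interval for Phlda3 was -1.39 to 0.62, for Aen -1.68 to 0.42, for Psrc1 -1.05 to 0.98, for Zmat3 -1.33 to 0.94, for Polk -0.83 to 0.99, for Trp53inp1 -1.63 to 1.19, for Xpc -2.04 to 0.70 and for Ddb2 -1.04 to 0.85. These intervals are wide, and equal responses were not shown for any gene.

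**Figure D5:**
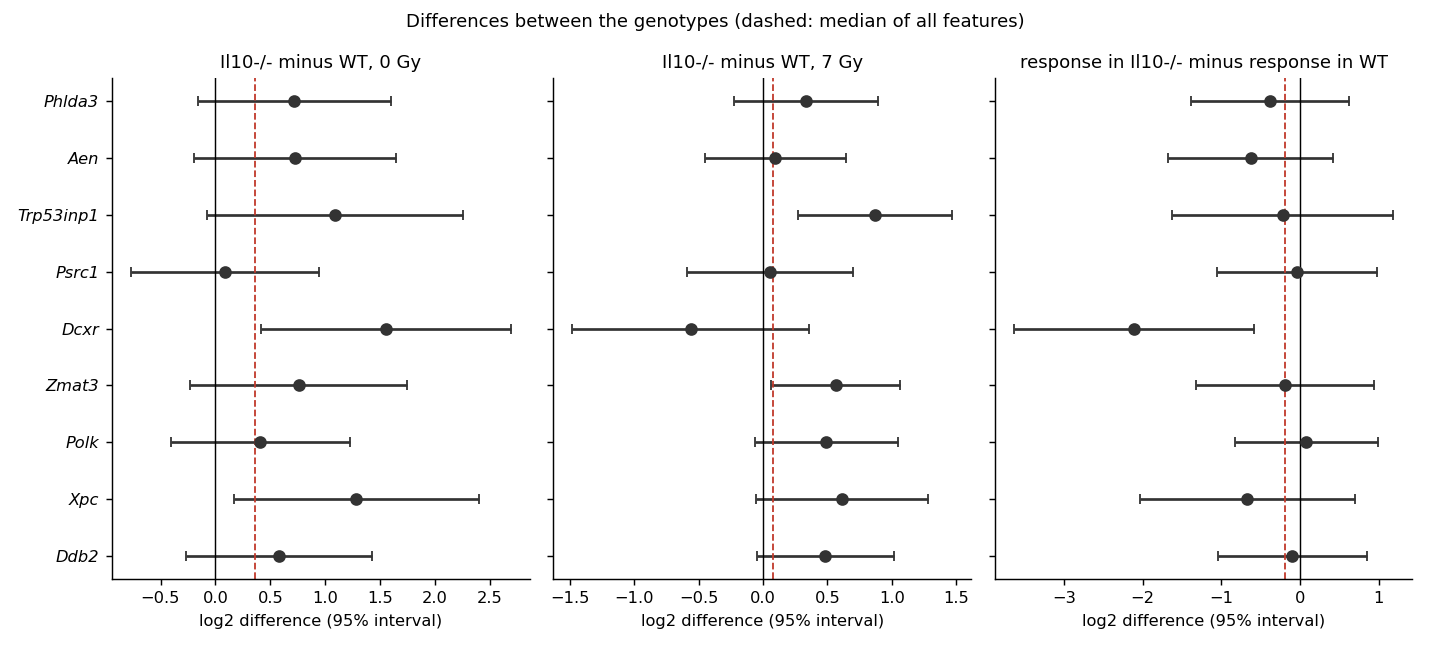
Log2 differences between the genotypes (horizontal axes, 95% intervals) of the 9 genes at 0 Gy, at 7 Gy and for the response to 7 Gy; the dashed lines are the medians of all features, 0.36, 0.08 and -0.20. The intervals of Dcxr and Xpc at 0 Gy, Trp53inp1 and Zmat3 at 7 Gy and Dcxr in the response lie off 0, and no gene passed the threshold after adjustment over all features.

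The genes with the most similar pattern were ranked by Pearson correlation with the mean standardized profile of the 9 genes, over 15702 other genes. Over the 20 arrays, which share the dose groups, the highest were Sac3d1 (0.98), Irgm2 (0.98), a probe without a gene name, Dcaf4 (0.97) and Rnf169 (0.97). On deviations from the 4 group means they were Zfp943 (0.97), Bahd1 (0.97), Bcor (0.96), Dusp16 (0.96) and Rbm39 (0.96). The profile of deviations was largest in size on WT 0 Gy replicate 5 (-2.05), where 29.9% of spots were well above background. These rankings are a description.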

How the data were processed

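Whole blood RNA of 20 mice was labelled with Cy3 and hybridised to single-colour Agilent mouse arrays. The authors scanned the arrays and extracted intensities with Agilent Feature Extraction (version 10.7 per the labels, 12.0.2.2 per the file headers), which subtracted background, with probes placed on mm9. The deposited series table holds log2 values, normalized by the authors to a reference array, and was used as an alternative. Here the deposited processed intensity was taken as log2, spots marked as non-uniform outliers were left out, repeat spots were averaged, and each array's median over 39429 probes was subtracted. Features marked as outlier or at background on 25% or more of the arrays, or with fewer than 20% of arrays at least 1.5-fold from their median, were left out, which left 18587 features. No value of the 14 probes was missing and none was saturated. The number of arrays limits the precision, and no depth applies.

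Groups were compared with limma 3.58.1 in R 4.3.3 (lmFit, eBayes), each pair of groups alone and all 20 arrays for the difference of the responses, with p below 0.001 and a false-discovery rate (Benjamini-Hochberg, all features) under 10% required. The code was tested on simulated data. Marker list means, 1 probe a gene, were compared by two-sided exact permutation tests over every split of 5 arrays against 5 (numpy 2.4.6). The lists of hepatocyte, heart, B cell, T cell, NK cell, neutrophil, monocyte, erythroid and platelet genes and of the pathways were written by hand. The 10 genes and all lists were chosen with earlier results of these data known. Named genes were all 10 and every probe, the called genes of each list (at most 10; 1 is not reported here), the 5 genes most like the set by each of the 2 correlations, Il10 and Trp53. The brightest probe above background stood for a gene, except that a gene of the 10 counted as called with any of its probes. Of 29785 probes with a RefSeq accession, 28330 matched a RefSeq symbol.

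Replicate numbers coincide with slides, and slide and scan are the same split. Deviations of same-numbered arrays from their group means correlated by -0.658 to 0.683 and were not all above 0.1, so the block is an alternative. Others were 75th percentile, quantile and reference-array scaling, normexp background (offset 50), the deposited log2 table, looser filters, all groups in 1 fit, replicates 1 and 2 averaged, liver and heart covariates, a rate under 5% alone, other probes and each array left out.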

Additional observations from a re-analysis of the deposited data

Results flagged for a closer look

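Of 36 combinations of gene and group, 2 held an array far from the other 4 by Dixon's criterion at 1 in 20. The combinations share arrays and are not independent, so this number cannot be set against chance. Trp53inp1 read 0.98 on WT 0 Gy replicate 5, against 3.70 to 4.52 on the other WT 0 Gy arrays. Ddb2 read 0.87 on Il10-/- 7 Gy replicate 3, against 1.59 to 1.87 on the others of its group. These are the 2 arrays with the fewest spots well above background, 29.9% and 34.6%, and neither value was well above background.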

How the results depend on the processing

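In WT the number of the 10 genes called, 5, became 3 with normexp background and 0 with liver and heart covariates, and in Il10-/- the 7 became 0 and 4. Calls over all features fell as well, from 1263 in WT and 1702 in Il10-/-. They were 268 and 0 of 11458 with normexp, and 5 and 604 of 18587 with covariates. The cause was not tested. Other settings gave 4 to 6 in WT and 5 to 8 in Il10-/- (the 8 with a rate under 5% alone, 7 higher and Ddb2 lower), and leaving out 1 array gave 4 to 5 and 5 to 7. No alternative called a gene in the other 3 comparisons, where the count stayed at 0. Adjusted p in them was at least 0.0949 (0 Gy), 0.0856 (7 Gy) and 0.217 (responses).

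With the replicate block, 5 genes were called in WT and 5 in Il10-/-, where Dcxr and Trp53inp1 were lost, and 0 elsewhere. Of 20 arrays 10 correlated best with their own number.

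Over all features the counts of calls were 157 (0 Gy), 1 (7 Gy), 0 (responses), 1263 (WT) and 1702 (Il10-/-). Without any array left out they ranged from 0 (normexp) to 384 (replicate block), 0 to 199 (covariates), 0 to 8 (covariates), 5 (covariates) to 2712 (rate under 5% alone) and 0 (normexp) to 4053 (rate under 5% alone).

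Among single genes, differences that were not called changed sign as follows. At 0 Gy Psrc1 was -0.26 with the 75th percentile, -0.20 with the reference array, -0.029 with normexp, -0.19 in the deposited table and -0.14 to 0.27 with 1 array left out, and the dim Polk probe gave -0.31. At 7 Gy normexp gave -0.52 for Phlda3, -0.70 for Aen, -0.34 for Psrc1 and -0.088 for Xpc, with the median feature at -0.498. Psrc1 was -0.045 with the 75th percentile and -0.052 with quantile scaling, -0.00026 in the deposited table and -0.11 to 0.19 with 1 array left out, and Aen was -0.00024 with the 75th percentile and -0.0026 to 0.24 with 1 array left out.

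For the difference of the responses, the 75th percentile, reference array and deposited table gave 0.034, 0.015 and 0.0098 for Trp53inp1, 0.22, 0.20 and 0.19 for Psrc1, 0.059, 0.040 and 0.0034 for Zmat3, and 0.16, 0.14 and 0.13 for Ddb2. Quantile scaling gave 0.016 for Trp53inp1 and -0.020 for Polk, replicates 1 and 2 averaged gave -0.073 for Polk, covariates gave 0.34 for Ddb2, and the dim Trp53inp1 probe gave 0.41. With the 2 weakest arrays left out together, a choice made after seeing the data, Phlda3 was 0.013, Trp53inp1 0.56, Psrc1 0.25, Zmat3 0.13, Xpc 0.023 and Ddb2 0.37. Leaving out 1 array gave -0.45 to 0.43 for Trp53inp1, -0.22 to 0.19 for Psrc1, -0.46 to 0.11 for Zmat3, -0.11 to 0.27 for Polk and -0.25 to 0.20 for Ddb2. WT 0 Gy replicate 5 gave the highest value of these for Trp53inp1 and Ddb2.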

Other observations

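Other marker lists gave these values at 7 Gy minus 0 Gy. Erythroid genes were lower by means of -1.51 in WT and -1.71 in Il10-/- (exact permutation p = 0.0079 and 0.0159), T cell genes by -0.99 and -0.82 (exact permutation p = 0.0556 and 0.0079), and platelet genes higher by 1.25 and 1.18 (exact permutation p = 0.0079 and 0.111). NK cell genes differed by 0.28 and 0.10 and monocyte genes by 0.54 and -0.17 (exact permutation p = 0.31, 0.651, 0.302 and 0.389). Heart genes differed by 2.32 in WT and 3.84 in Il10-/- (exact permutation p = 0.135 and 0.0159). After adjustment over 36 comparisons the values at 0.0079 became 0.0286 and those at 0.0159 became 0.0476.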
